A study of Mus musculus with 9 samples.

Results

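Alternative activation genes were followed in CD11b+ cells isolated from mouse livers after an overdose of acetaminophen (APAP), given intraperitoneally to cause acute liver failure. The 8 genes described, of the 45777 in the tables, are the receptor chain Il4ra, the secreted proteins Chil3, Chil4, Retnla and Ear2, and the lectins Mrc1, Clec10a and Mgl2. They were chosen by name and matched by Entrez identifier, with 1 table row each, and all 8 passed the filter on low values. Bulk RNA sequencing covered 9 samples in 3 groups of 3, and all the animals had received APAP, so no healthy liver is among them. The PBS group was the control. The HEK-EV group received extracellular vesicles labelled SIRP-EV that were made by HEK cells (a line of human embryonic kidney origin), and the MSC-EV group received SIRP-EV from MSC, usually read as mesenchymal stem or stromal cells. Vesicles were given intravenously 8 hours after APAP, and livers were taken 48 hours after it. The labels spell out neither SIRP nor MSC, and give no strain, age, sex, batch or number of animals per sample, so the spread between samples may be partly technical. Values are TPM, transcript abundances corrected for length and library size, as mean ± SD with n = 3. Differences are on the log2(TPM + 1) scale with their standard error (SE), and adjusted p values are from limma, by Benjamini-Hochberg over all 13820 genes tested.

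Alternative activation is the state that macrophages enter when interleukin 4 or interleukin 13 binds a receptor containing the Il4ra chain, which signals through Janus kinases to the transcription factor STAT6. The genes it is known for in the mouse encode chitinase-like proteins, a resistin-like protein and endocytic lectins, and the state is associated with repair and the clearing of debris. None of the genes belongs to that state alone. Mrc1 is also made by liver sinusoidal endothelium, Chil3 is also abundant in monocytes and neutrophil precursors, and Clec10a and Mgl2 are also made by dendritic cells.

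Chil3, Chil4 and Ear2 fell in the MSC-EV group against both other groups, and the other 5 genes passed the test in no comparison. In MSC-EV against PBS 3 of the 8 genes were called, all lower, where 5.11% of all genes tested were called, 3.25% lower and 1.86% higher. In MSC-EV against HEK-EV the same 3 were called, all lower, where 5.91% of all genes tested were called, 4.4% lower and 1.51% higher. In HEK-EV against PBS limma called 0 of the 8 and 0% of all genes tested. At an unadjusted p under 0.05 there were 0 of the 8 in that comparison, and 3.58% of all genes tested. In MSC-EV against PBS that threshold was met by 4 members and 23% of all genes tested, and in MSC-EV against HEK-EV by 6 members and 23.3%. The median difference over the 8 genes was -0.01 in MSC-EV against PBS, -0.02 in HEK-EV against PBS and -0.23 in MSC-EV against HEK-EV, where all genes tested had medians of 0.01, 0.03 and -0.02. Groups did not overlap for 5 members in MSC-EV against PBS, 2 higher and 3 lower (26% of all genes tested, 11.2% higher and 14.9% lower), for 0 in HEK-EV against PBS (7.81%, 5.51% higher and 2.29% lower), and for 5 in MSC-EV against HEK-EV, 1 higher and 4 lower (30.1%, 12.6% higher and 17.5% lower). The comparisons share samples, so they are not independent of each other.

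**Figure D1:**
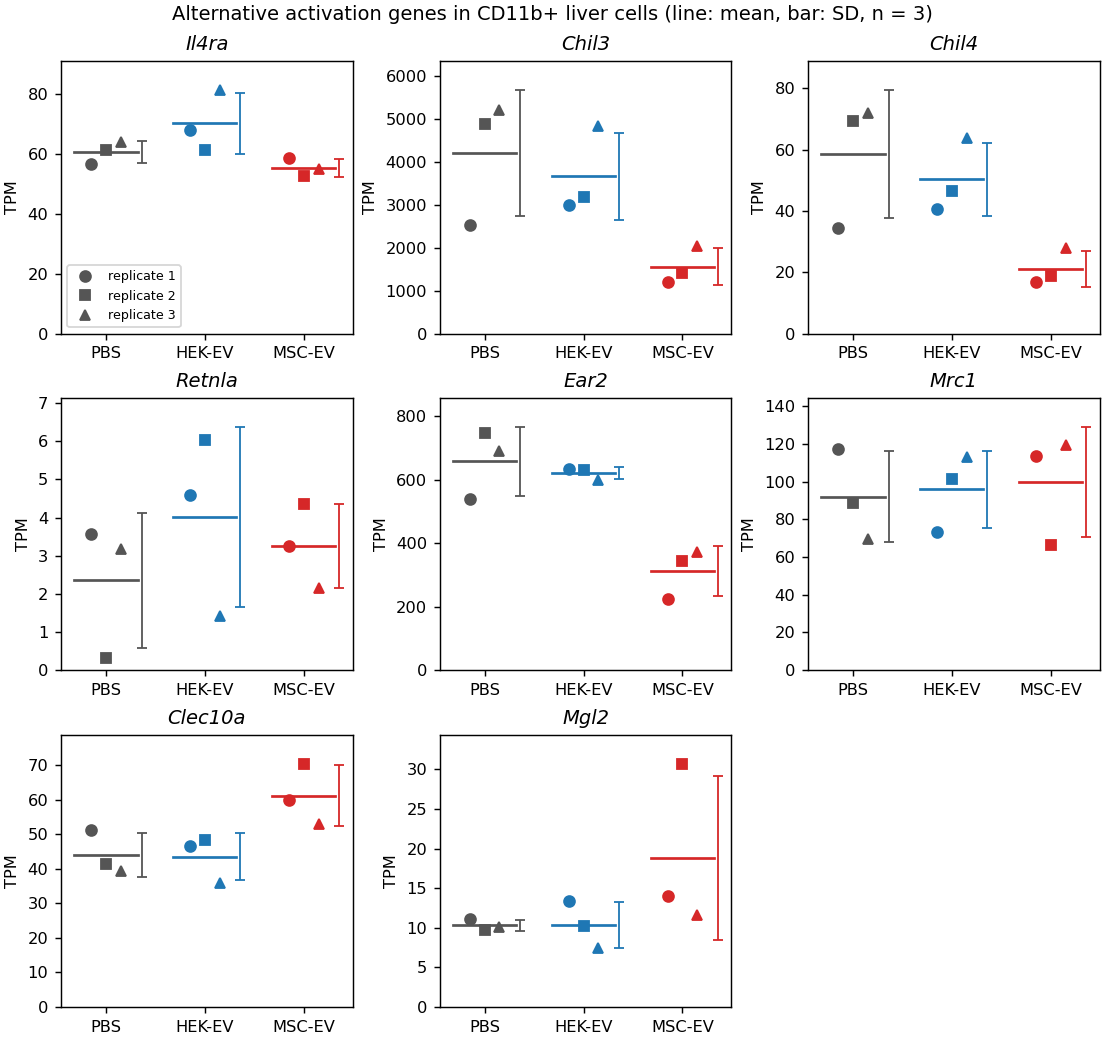
TPM of the 8 genes in each sample, with 1 panel per gene, axes from 0, a horizontal line at the mean and a bar of 1 SD (n = 3). The MSC-EV points for Chil3, Chil4 and Ear2 lie below all points of the other groups, while those for Mrc1 and Retnla overlap them.

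**Figure D2:**
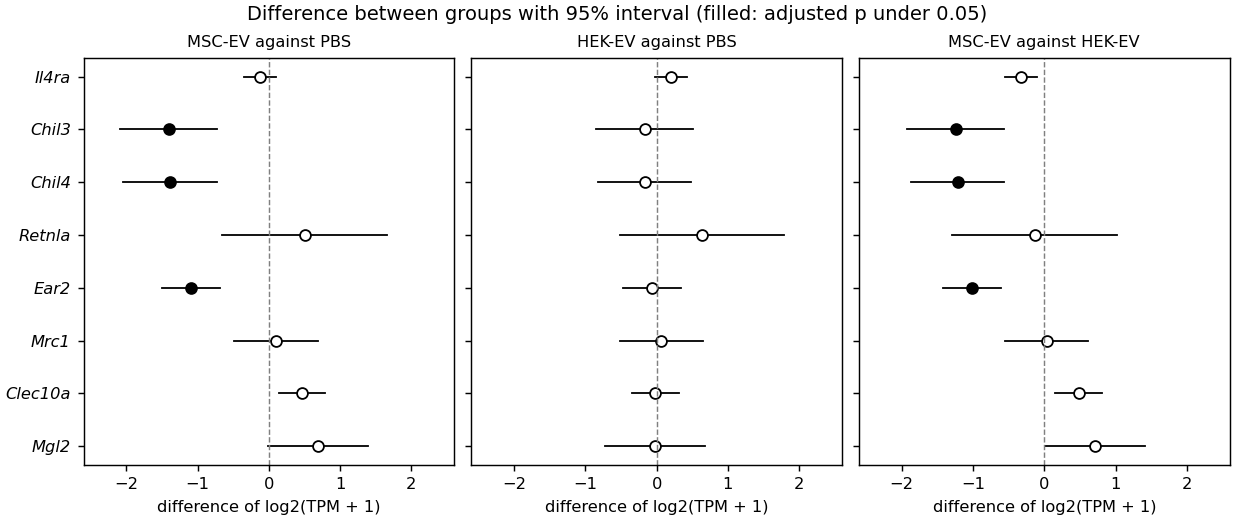
Difference of log2(TPM + 1) between groups for each gene, with its 95% interval from limma and filled points at an adjusted p under 0.05. Filled points occur for Chil3, Chil4 and Ear2 in both comparisons with the MSC-EV group, and there are none in HEK-EV against PBS.

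Several features of the whole series bear on these values. Itgam, which encodes CD11b, lay between 196 and 434 TPM in every sample, and its lowest values were those of the MSC-EV group. The tables hold no read counts, so depth in reads is unknown, and as a stand-in for it coverage divided by FPKM was 5.28 to 6.32 with PBS, 6.25 to 6.47 with HEK-EV and 6.58 to 6.84 in the MSC-EV group. Genes of the pancreatic acinus separated 4 of the samples, since the median over 16 of them was 1.42 TPM or more in HEK-EV replicates 1 and 2 and MSC-EV replicates 1 and 3, and 0 in the other 5. Among called genes, 36.4% were higher in MSC-EV against PBS, which became 58.7% on FPKM and 47.2% when samples were scaled by median of ratios. In MSC-EV against HEK-EV the share was 25.6%, and it was 46.3% with median-of-ratios scaling, 45.5% with quantile normalization and 54.8% on FPKM. In such bulk samples, fewer cells of a type and less RNA per cell cannot be told apart.

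Il4ra (mm10 chr7:125552271-125579474), the signalling chain shared by the interleukin 4 and interleukin 13 receptors, passed the test in no comparison. It was at 56.7, 61.2 and 63.9 TPM after PBS, 67.9, 61.1 and 81.2 after HEK-EV and 58.5, 52.6 and 55.0 after MSC-EV. The MSC-EV values lay below all HEK-EV values and overlapped those of PBS. The difference of MSC-EV from HEK-EV was -0.33 (SE 0.0988, adjusted p = 0.0833), and from PBS it was -0.13 (SE 0.0988, adjusted p = 0.49), so neither passed.

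Around the receptor, a list of 13 genes of interleukin 4 and 13 signalling had 11 genes past the filter. In MSC-EV against PBS 3 of them were called lower and 0 higher, and the median difference was -0.11. The shares over all genes tested were 3.25% lower and 1.86% higher. Il13ra1, the partner chain that binds interleukin 13, fell from 91.7 ± 10.3 TPM under PBS to 64.9 ± 8.21 under MSC-EV (-0.49, SE 0.103, adjusted p = 0.0321) and was at 93.8 ± 3.81 in the HEK-EV group. Stat6, the transcription factor of the pathway, was at 180, 187 and 183 TPM after PBS, 196, 189 and 187 after HEK-EV and 151, 160 and 157 after MSC-EV. The MSC-EV samples were below the other 6, by 0.23 on the log2 scale against PBS (SE 0.0473, adjusted p = 0.0313) and more against HEK-EV (-0.29, adjusted p = 0.0207). Ptpn6, a phosphatase that restrains cytokine receptor signalling, fell from 724 ± 79.4 to 549 ± 15.1 TPM (-0.39, adjusted p = 0.0405). Ptprc, which encodes the leukocyte antigen CD45, was at 515, 647 and 592 TPM after PBS and 418, 425 and 428 after MSC-EV. After HEK-EV it was at 669, 575 and 597. Itgam was at 289, 324 and 377 TPM after PBS, 339, 342 and 434 after HEK-EV and 196, 235 and 255 after MSC-EV. The summed hepatocyte genes, given below, were higher in the MSC-EV group. The summed biliary genes were higher too, but nearly all of that sum was Spp1, which macrophages also make. The part of leukocyte content in the values of this list was not tested.

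Against HEK-EV, 5 genes of that list were called lower and 1 higher, with a median of -0.28. The shares over all genes tested were 4.4% lower and 1.51% higher. Besides Il13ra1, Stat6 and Ptpn6 (-0.53, -0.29 and -0.43), the kinases Jak1 and Jak3 fell (-0.28 and -0.40), and Irs2, an adaptor that links the interleukin 4 receptor to phosphoinositide signalling, rose (0.48, adjusted p = 0.0427). Irs2 was at 14.8 ± 1.51 TPM in the MSC-EV group, 10.3 ± 0.198 with HEK-EV and 10.9 ± 1.78 in the PBS group. Il2rg, the common gamma chain, was at 144 ± 13.9, 144 ± 8.38 and 133 ± 18.3 TPM with PBS, with HEK-EV and with MSC-EV respectively and passed in no comparison. The ligands were close to the bottom of the scale: Il4 lay between 0 and 3.45 TPM, and Il13 was listed at 0 in 8 of the 9 samples. In HEK-EV against PBS, 0 genes of the list were called by limma, and 1 at an unadjusted p under 0.05, Jak3 (0.33). That threshold was met by 3.58% of all genes tested.

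Alternatively activated macrophages are also known for their use of arginine. A list of 15 genes of arginine and polyamine metabolism gave no call, with 13 past the filter and 0 called by limma in any of the comparisons (4 at an unadjusted p under 0.05 in MSC-EV against PBS, 1 in HEK-EV against PBS and 2 in MSC-EV against HEK-EV). The unadjusted threshold was met by 23%, 3.58% and 23.3% of all genes tested in those comparisons. Their median difference was -0.03 in MSC-EV against PBS, 0.02 in HEK-EV against PBS and -0.05 in MSC-EV against HEK-EV. At the smallest unadjusted p in MSC-EV against PBS were Oat, which makes proline precursors from ornithine (0.22, adjusted p = 0.105), Sat1, which breaks polyamines down (-0.30, adjusted p = 0.109), and Amd1, which acts in polyamine synthesis (-0.13, adjusted p = 0.134). Nos2, which competes for arginine, was below 1 TPM in 8 samples and at 11.4 TPM in MSC-EV replicate 1.

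Chil3 (chr3:106147554-106167564), a secreted chitinase-like protein also known as Ym1, was by far the most abundant of the 8 genes and fell in the MSC-EV group. It was at 2537, 4880.1 and 5224 TPM after PBS, 2991, 3184 and 4839.9 after HEK-EV and 1206, 1421 and 2035 after MSC-EV. The 3 MSC-EV samples were the lowest of the 9, and PBS replicate 1 was the lowest of the other 6. The difference was -1.40 against PBS (SE 0.303, adjusted p = 0.0353) and -1.24 against HEK-EV (SE 0.303, adjusted p = 0.0455), while HEK-EV differed from PBS by -0.16 (SE 0.303, adjusted p = 0.999). Chil3 ranked between 14 and 118 among all genes by TPM, and made up 70.7% to 84.6% of the summed TPM of the 8 genes in a sample.

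Chil4 (chr3:106201491-106219479), also known as Ym2, is the near copy of Chil3 on the same chromosome, and its values moved with those of Chil3 in every sample. It was at 34.6, 69.3 and 71.8 TPM after PBS, 40.6, 46.5 and 63.8 after HEK-EV and 17.0, 18.7 and 27.9 after MSC-EV. Again the MSC-EV group was lowest, by -1.38 against PBS (SE 0.291, adjusted p = 0.0332) and -1.22 against HEK-EV (SE 0.291, adjusted p = 0.0436). Chil4 stood at 1.32% to 1.46% of the Chil3 level in all 9 samples, a range of 1.11-fold, while Chil3 itself varied 4.33-fold. The longest coding transcripts of the pair in GENCODE M21 were 94.7% identical over 1535 aligned bases, and 18.5% of the 50-base windows of each occurred unchanged in the other. Counting all other genes, 29.4% of the Chil3 windows and 20.4% of those of Chil4 occurred elsewhere. How the counting shared reads between such copies is not given in the sources used here, so the 2 falls are not independent measurements.

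The 250 bases before the RefSeq starts of Chil3, Chil4 and Retnla are shown because they hold matches to paired half-sites. STAT6 is known to bind half-sites of the kind searched, and its part in the values of these genes was not tested. The sequences come from RefSeq on GRCm38.p6, where 7 of the 8 genes (not Clec10a) had an entry and were searched. They are written 5′ to 3′ on the gene's strand, with matches to TTCNNNGAA or TTCNNNNGAA in capitals. These motifs read the same on both strands and do not overlap here.
Chil3, chr3:106167565-106167814, minus strand: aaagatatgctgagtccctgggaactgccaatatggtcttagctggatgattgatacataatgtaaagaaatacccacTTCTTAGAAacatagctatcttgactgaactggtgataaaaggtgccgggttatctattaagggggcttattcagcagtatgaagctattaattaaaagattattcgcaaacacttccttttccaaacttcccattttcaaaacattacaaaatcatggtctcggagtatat
Chil4, chr3:106219480-106219729, minus strand: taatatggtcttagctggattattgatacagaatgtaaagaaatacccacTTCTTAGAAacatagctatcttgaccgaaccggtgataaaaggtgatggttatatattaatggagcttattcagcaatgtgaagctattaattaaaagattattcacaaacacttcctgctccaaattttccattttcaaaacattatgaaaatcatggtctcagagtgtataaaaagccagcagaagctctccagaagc
Retnla, chr16:48842359-48842608, plus strand: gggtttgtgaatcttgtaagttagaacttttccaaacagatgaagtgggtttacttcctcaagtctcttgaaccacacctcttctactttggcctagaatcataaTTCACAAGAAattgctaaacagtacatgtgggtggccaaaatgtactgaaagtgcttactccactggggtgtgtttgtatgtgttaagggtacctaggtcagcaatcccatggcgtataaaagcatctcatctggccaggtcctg
Chil3 and Chil4 carry the same TTCNNNGAA match, TTCTTAGAA, which begins 172 and 200 bases before their RefSeq starts, in stretches that were 91% identical over 221 aligned bases. TTCNNNGAA occurred in 7.02% of 32851 promoter windows of this length. Retnla has TTCACAAGAA from 145 to 136 bases before its RefSeq start, and TTCNNNNGAA occurred in 5.85% of the windows. The deposited tables place the start of Retnla 88 bases upstream of the RefSeq start, so the last 88 bases shown lie inside the gene as those tables give it, and the match lies 57 to 48 bases before that start. In Il4ra, Ear2, Mrc1 and Mgl2 these letters are not in the window, and for Mgl2 the deposited start is 232 bases upstream of the RefSeq start. For the other 5 genes both starts were the same.

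Genes of other myeloid cells also differed in the MSC-EV group. The summed level of 7 genes of Ly6C-high monocytes was 3658 to 7337 TPM with PBS, 4704 to 5902 with HEK-EV and 2673 to 3032 with MSC-EV, and 7 of 7 had negative differences in both comparisons with the MSC-EV group, 4 called lower against PBS and 3 against HEK-EV. In these comparisons 3.25% and 4.4% of all genes tested were called lower. The sample lowest for Chil3 was also lowest for 7 of the 7 with PBS, 1 with HEK-EV and 3 with MSC-EV, against 22.3%, 40.6% and 32.8% of all genes tested. The sample highest for Chil3 was also highest for 5 of the 7 with PBS, 3 with HEK-EV and 2 with MSC-EV, against 19.7%, 42.4% and 50.9% of all genes tested. This comparison of lowest and highest samples was added after the values were seen and is a description. The full order of Chil3 within the 3 groups was shared by 0 of the 7 and by 0.499% of all genes tested. It was shared by 1 of the 10 neutrophil genes described below, Retnlg. Ly6c2, an antigen of inflammatory monocytes, was at 504, 1226 and 1229 TPM after PBS, 936, 714 and 753 after HEK-EV and 359, 381 and 337 after MSC-EV. Its MSC-EV values were below all the others. The summed level of 10 neutrophil genes was 3021 to 5580 TPM with PBS, 4999 to 6872 with HEK-EV and 2947 to 3755 in the MSC-EV group. The calprotectin genes S100a8 and S100a9, which monocytes also express, made up 72.7% to 80.4% of that sum, and the other 8 genes summed to 709.9 to 1100 TPM with PBS, 999 to 1446 with HEK-EV and 780.3 to 804 with MSC-EV. Of the 10 genes, 7 had negative and 3 positive differences in both comparisons with the MSC-EV group. Against PBS 0 were called lower and 0 of the 7 were lower without overlap, and against HEK-EV 6 were lower without overlap and 1 of them was called, Csf3r, a growth factor receptor of neutrophils (-0.35, adjusted p = 0.0402). Without overlap, 14.9% and 17.5% of all genes tested were lower in these comparisons. The 3 positive ones were granule genes of neutrophil precursors. Ltf, lactoferrin, was called higher in MSC-EV against PBS (0.87, SE 0.187, adjusted p = 0.0348) and against HEK-EV (1.20, adjusted p = 0.0205), while Ngp and Camp were higher against PBS without overlap but did not pass the test (1.01 and 0.73, adjusted p = 0.114 and 0.159). Neither list had a gene at 0 throughout, and the part of these cells in the Chil3 values was not tested.

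By profile over the 9 samples, the gene most like Chil3 among 9624 was Chil4, with a root mean square difference of 0.05 between centred log2(TPM + 1) profiles, where Chil3 itself varied by 0.73. Also among the closest were Hsd11b1, which regenerates active glucocorticoid (0.23), Vcan, a matrix proteoglycan (0.26), and Ifitm6 (0.26). Vcan was also in the monocyte list above. These samples share the group difference, so likeness over them includes it.

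**Figure D3:**
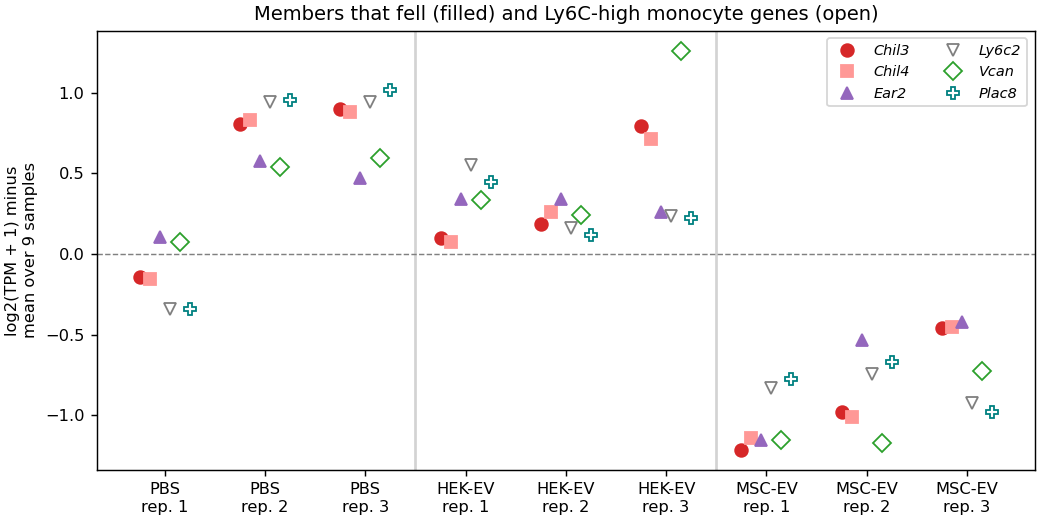
Log2(TPM + 1) minus its mean over the 9 samples, for Chil3, Chil4 and Ear2 (filled) and the monocyte genes Ly6c2, Vcan and Plac8 (open), with 1 column of points per sample. After MSC-EV the points of these 6 genes lie below 0, and Chil3 and Chil4 nearly coincide in every sample.

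Ear2 (chr14:44102654-44103531), an eosinophil-associated ribonuclease that mouse monocytes also express, fell in the same comparisons as the chitinase-like genes, with a smaller standard error. It was at 538, 746 and 690.4 TPM after PBS, 633, 632 and 599 after HEK-EV and 224, 345 and 372 after MSC-EV. All MSC-EV samples were below the other 6. The difference was -1.09 against PBS (SE 0.181, adjusted p = 0.0223) and -1.02 against HEK-EV (SE 0.181, adjusted p = 0.0233). HEK-EV differed from PBS by -0.07 (95% interval -0.48 to 0.34).

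Of 10 eosinophil and basophil genes, the eosinophil granule genes Epx, Prg2 and Prg3 were listed at 0 in all 9 samples, while the eosinophil surface genes Siglecf and Ccr3 were present in every sample, at 6.98 to 13.6 and 2.26 to 4.73 TPM, and were called in no comparison. The summed level of the 10 was 11.8 to 14.7 TPM with PBS, 14.3 to 18.3 with HEK-EV and 13.9 to 16.4 in the MSC-EV group. Ear10, a close relative, fell likewise from 11.8 ± 2.46 TPM under PBS to 4.96 ± 1.22 under MSC-EV (-1.11, SE 0.203, adjusted p = 0.0251). Of the 50-base windows of the Ear2 transcript, 41.5% occurred in another gene and 26% in Ear10, so the values of this family are uncertain to that extent. Of 17 relatives of the genes, 6 passed the filter, and besides Ear10 the calls were Asgr1 and Asgr2, the hepatocyte lectin chains, higher in MSC-EV against HEK-EV (0.94 and 0.72) at 1.19 ± 0.307 and 1.52 ± 0.207 TPM. The summed level of 10 hepatocyte genes was 193 to 263 TPM with PBS, 138 to 285 with HEK-EV and 360.4 to 471 with MSC-EV, none was at 0 throughout, and their part in the Asgr1 and Asgr2 values was not tested.

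Retnla (chr16:48842521-48844462), a resistin-like secreted protein also known as Fizz1 and a standard marker of interleukin 4 exposure, was near the bottom of the measured range. It was at 3.58, 0.324 and 3.17 TPM after PBS, 4.59, 6.04 and 1.42 after HEK-EV and 3.27, 4.36 and 2.15 after MSC-EV. The groups overlapped, and neither difference from PBS passed the test, with 0.50 for MSC-EV against PBS (SE 0.514, adjusted p = 0.619) and 0.64 for HEK-EV against PBS (SE 0.514, adjusted p = 0.999). The first of these was -0.07 without PBS replicate 2, and with array quality weights, which let limma count some samples for less, it was 1.36 and passed the test (adjusted p = 0.0457). The second ran from 0.063, without PBS replicate 2, to 1.70 over the alternatives and passed in none. In TPM Retnla ranked between 9870 and 15462 among all genes, far below Chil3.

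Mrc1 (chr2:14229414-14332023), the macrophage mannose receptor CD206 that takes up glycoproteins, had group means that differed by less than the spread between samples. It was at 117, 88.7 and 69.8 TPM after PBS, 73.2, 101 and 113 after HEK-EV and 114, 66.2 and 119 after MSC-EV. Each group held both high and low samples. The difference of MSC-EV from PBS was 0.10 (SE 0.259, 95% interval -0.48 to 0.68, adjusted p = 0.86), and changes of up to 0.68 lie within that interval. Over 20 alternative fits this difference ran from -0.08 to 0.70 and passed in none (lowest adjusted p = 0.227). HEK-EV differed from PBS by 0.07 (95% interval -0.52 to 0.65), and MSC-EV from HEK-EV by 0.03 (95% interval -0.55 to 0.62).

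Within the groups, Mrc1 shared its sample order with many genes of Kupffer cells, the resident macrophages of the liver, and of sinusoidal endothelium. The order of the 3 samples in each of the 3 groups was the same as for Mrc1 in 6 of 8 Kupffer cell genes (Clec4f, Timd4, Cd5l, Clec1b, Folr2 and C6) and in 7 of 10 endothelial genes (Stab2, Clec4g, Oit3, Kdr, Bmp2, Ptprb and Cdh5), against 646 of the 13819 other genes tested (4.67%). For Chil3 and for Ear2 it was 0 of 8 and 0 of 10, where 0.499% and 0.586% of the other genes tested had the order of each. This likeness was noticed after the values were seen and is a description. Clec4f, a lectin of Kupffer cells, was at 668, 635 and 538 TPM after PBS, 323, 592 and 705 after HEK-EV and 307, 265 and 498 after MSC-EV. Stab2, a scavenger receptor of sinusoidal endothelium, was at 44.6, 36.1 and 26.5 TPM after PBS, 21.8, 34.3 and 43.0 after HEK-EV and 19.9, 12.8 and 30.8 after MSC-EV. Both were thus highest in the same sample of each group as Mrc1.

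Between the groups, all 8 Kupffer cell genes and all 10 endothelial genes had negative differences in MSC-EV against PBS, with medians of -0.55 and -0.79 and 0 called by limma. At an unadjusted p under 0.05 were 2 of the 8 and 10 of the 10, where 23% of all genes tested met that threshold. Their summed levels were 2722 to 3285 and 357 to 450.4 TPM with PBS, 1855 to 3832 and 236 to 514 in the HEK-EV group, and 1527 to 2671 and 152 to 295 with MSC-EV. No gene was at 0 throughout. The ratio of Mrc1 to Stab2 was 2.45 to 2.63 after PBS, 2.62 to 3.35 after HEK-EV and 3.87 to 5.71 after MSC-EV. The MSC-EV group thus lay above the other groups in this ratio while Mrc1 itself overlapped. Stab2 was named after its values were seen, and its own negative difference enters the ratio. No ratio of Mrc1 to another gene was computed. The part of either cell type in the Mrc1 values was not tested.

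**Figure D4:**
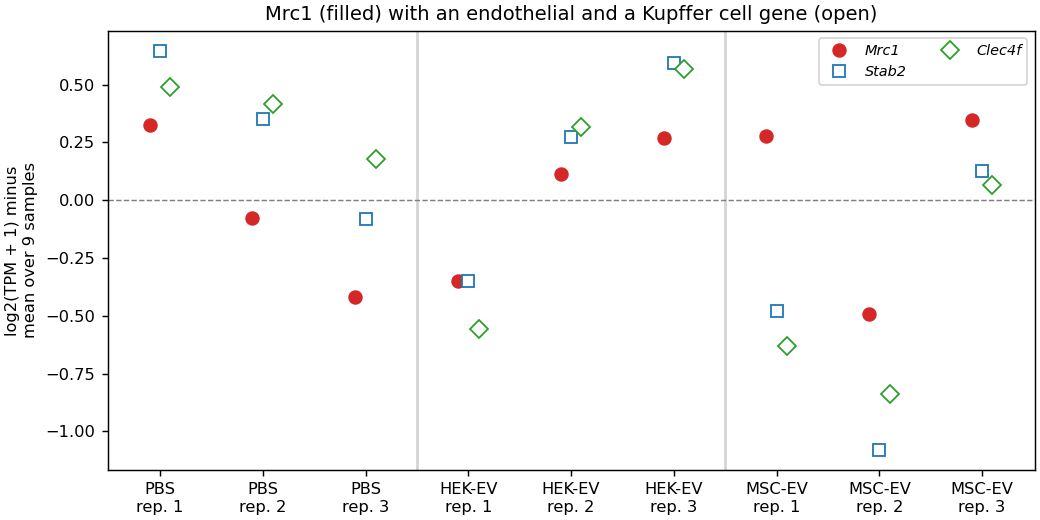
Log2(TPM + 1) minus its mean over the 9 samples, for Mrc1 (filled) and for Stab2 of sinusoidal endothelium and Clec4f of Kupffer cells (open), with 1 column of points per sample. Within each group the samples have the same order for the 3 genes, and in the MSC-EV group Mrc1 lies above both.

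By profile over the 9 samples, the genes most like Mrc1 were Dmpk, a kinase (root mean square difference 0.05, where Mrc1 itself varied by 0.32), Scamp5 (0.08), Myo9a, an unconventional myosin (0.11), Gbgt1 (0.11) and Rhobtb1 (0.12). Dmpk had 161, 118 and 97.7 TPM after PBS, 91.1, 135 and 147 after HEK-EV and 152, 93.0 and 167 after MSC-EV, the same order as Mrc1 within each group.

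Clec10a (chr11:70166623-70170836) and Mgl2 (chr11:70130125-70137542), neighbouring genes for C-type lectins that bind galactose-type sugars, were higher in each MSC-EV sample than in each PBS sample, and neither passed the test in the fit of all 9 samples. Clec10a was at 51.3, 41.2 and 39.4 TPM after PBS, 46.4, 48.3 and 35.8 after HEK-EV and 60.0, 70.4 and 53.0 after MSC-EV. The MSC-EV samples were the highest of the 9. The difference was 0.47 against PBS (SE 0.145, unadjusted p = 0.0101, adjusted p = 0.092) and 0.48 against HEK-EV (SE 0.145, adjusted p = 0.0811). With array quality weights both passed (0.54, adjusted p = 0.00558, and 0.43, adjusted p = 0.0379), and the first also without PBS replicate 1 (0.58, adjusted p = 0.0355). Not overlapping between MSC-EV and PBS were 5 of the 8 genes, the 3 that fell and these 2, where 26% of all genes tested did not overlap.

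Mgl2 was at 11.1, 9.72 and 10.1 TPM after PBS, 13.4, 10.2 and 7.49 after HEK-EV and 14.0, 30.7 and 11.7 after MSC-EV. MSC-EV replicate 2 stood well above the other 8. The difference from PBS was 0.69 (SE 0.31, adjusted p = 0.222), and it was 0.29 without that sample. Mgl2 was at 20.9% to 28.8% of the Clec10a level in 8 samples and at 43.6% in MSC-EV replicate 2. The longest coding transcripts of the pair were 87.8% identical over 1035 aligned bases. Of the 50-base windows of Clec10a 10.6% occurred in Mgl2, and 15.3% of those of Mgl2 occurred in Clec10a. How the counting shared reads between them is not given, so the values of the pair may not be independent measurements.

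The dendritic cell gene Cd209a was at 64.1 to 83.3 TPM with PBS, 41.2 to 71.0 with HEK-EV and 78.5 to 125 with MSC-EV, and was highest in MSC-EV replicate 2. The summed level of 9 dendritic cell genes was 124 to 151 TPM with PBS, 106 to 139 with HEK-EV and 151 to 188 in the MSC-EV group. Of these 9, 8 passed the filter and 4 had positive differences against PBS, with 0 called by limma and 3 at an unadjusted p under 0.05, of which Ccr7 and Flt3 had positive differences (0.91 and 0.37) and Batf3 a negative one (-0.28). That threshold was met by 23% of all genes tested. Cd209a made up 39% to 66.4% of the sum in a sample and differed from PBS by 0.34 (adjusted p = 0.423). Without it the other 8 genes summed to 59.6 to 67.4 TPM with PBS, 57.0 to 67.5 with HEK-EV and 63.0 to 72.1 with MSC-EV, and the groups overlapped. None was at 0 throughout, and the part of dendritic cells in the lectin values was not tested.

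A list of 26 other genes tied to alternative activation, all past the filter, moved both ways. In MSC-EV against PBS 3 were called higher and 1 lower, with 13 positive and 13 negative differences and a median of 0.03. The shares over all genes tested were 1.86% higher and 3.25% lower. Klf4, a transcription factor that acts with STAT6 in macrophages, was at 101, 109 and 106 TPM after PBS, 70.0, 67.2 and 70.7 after HEK-EV and 36.9, 49.5 and 49.5 after MSC-EV. The 3 groups did not overlap, and the fall was 1.21 on the log2 scale against PBS (a difference of -1.21, SE 0.103, adjusted p = 0.00486) and -0.61 against HEK-EV (adjusted p = 0.0215). HEK-EV differed from PBS by -0.60 (SE 0.103), which failed the adjustment (adjusted p = 0.944).

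The genes of that list called higher were Cdh1, Stab1 and Trem2. Cdh1, E-cadherin, is a STAT6 target in macrophages and also an epithelial gene, and rose from 2.64 ± 0.371 TPM under PBS to 7.03 ± 0.726 under MSC-EV (1.14, SE 0.127, adjusted p = 0.00973). The biliary epithelial genes Krt19, Epcam and Sox9 were also called higher in that comparison (3 of 7, with 6 past the filter and 6 positive differences). Over all genes tested, 1.86% were called higher and 52.3% had positive differences. The summed level of the 7 was 741 to 1710.0 TPM with PBS, 895 to 1185 with HEK-EV and 1772 to 2359.9 in the MSC-EV group. Nearly all of that sum was Spp1, which macrophages also make. The part of the biliary genes in the Cdh1 values was not tested. Stab1, a scavenger receptor of macrophages and endothelium, rose from 130 ± 40.9 to 246 ± 35.9 TPM (0.95, adjusted p = 0.0457), and Trem2, a lipid-sensing receptor of macrophages, from 344 ± 63.2 to 498 ± 34.2 TPM (0.54, adjusted p = 0.038).

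Against HEK-EV, Cdh1 and Trem2 were again called higher (0.81 and 0.57). Klf4, Tgm2, a crosslinking enzyme used as a marker of alternative activation in mouse and human (-0.40), and Tgfb1, a repair cytokine (-0.35), were called lower. The median of the 26 was -0.10, and 1.51% of all genes tested were called higher and 4.4% lower. Tgm2 was at 274 ± 7.50 TPM in the MSC-EV group, 362 ± 26.2 with HEK-EV and 329 ± 16.9 in the PBS group. In HEK-EV against PBS 0 of the 26 were called by limma (4 at an unadjusted p under 0.05, met by 3.58% of all genes tested), and the median was 0.11.

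The falls of Chil3, Chil4 and Ear2 against PBS kept their direction in 20 of 20 alternative fits, from -2.15 to -1.21, -2.14 to -1.20 and -1.47 to -0.86. Their adjusted p depended on single samples and ran from 0.000716 to 0.164, 0.000641 to 0.152 and 0.000645 to 0.116. The calls of all 3 were lost without PBS replicate 2 or 3, without MSC-EV replicate 1 or 2, with only the 6 samples compared and with the acinar split as a term. In those 6 fits 5 to 77 of all 13820 genes tested were called, so 0 of the 8 is no result about these genes. Those of Chil3 and Chil4 were also lost without HEK-EV replicate 2 and without the filter on low values. Against HEK-EV the ranges were -1.57 to -1.02, -1.55 to -1.03 and -1.18 to -0.79. The adjusted p ran from 0.00788 to 0.164, 0.00645 to 0.159 and 0.00455 to 0.0804, with the calls lost in 10, 11 and 6 of 20 fits. No member was called without any one of HEK-EV replicates 1, 2 and 3 or MSC-EV replicates 1 and 2, where 0 to 31 of all genes tested were called. Without the filter on low values no member was called either, and 387 genes were. Ear2 alone was called on FPKM, with median-of-ratios scaling, with the acinar split and without PBS replicate 2, where 436 to 636 genes were called.

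The called pathway genes kept their direction in every alternative fit that could be made. Against PBS, Klf4 was called in 20 of 20 (adjusted p 0.000572 to 0.0339), and Cdh1 lost its call without PBS replicate 2 or 3 (highest adjusted p = 0.0573). Il13ra1, Stat6, Ptpn6, Stab1, Trem2 and Ear10 lost theirs in 10, 13, 14, 10, 10 and 8 of 20 fits, each of them without PBS replicate 2 or 3 and without MSC-EV replicate 1 or 2, and Stat6 and Ptpn6 also on FPKM, with median-of-ratios scaling and with quantile normalization. Against HEK-EV, the named pathway calls were lost without any one of HEK-EV replicates 1, 2 and 3 or MSC-EV replicates 1 and 2. Most were lost in further fits too. Jak3, Ptpn6, Jak1 and Irs2 lost theirs in 12, 11, 10 and 10 of 20 fits. Stat6 lost its call in 7, and Il13ra1, Tgm2, Tgfb1, Trem2 and Ear10 in 6 each. Cdh1 and Klf4 lost theirs in 5, and Asgr1 and Asgr2 in 8 and 7 of 18.

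**Figure D5:**
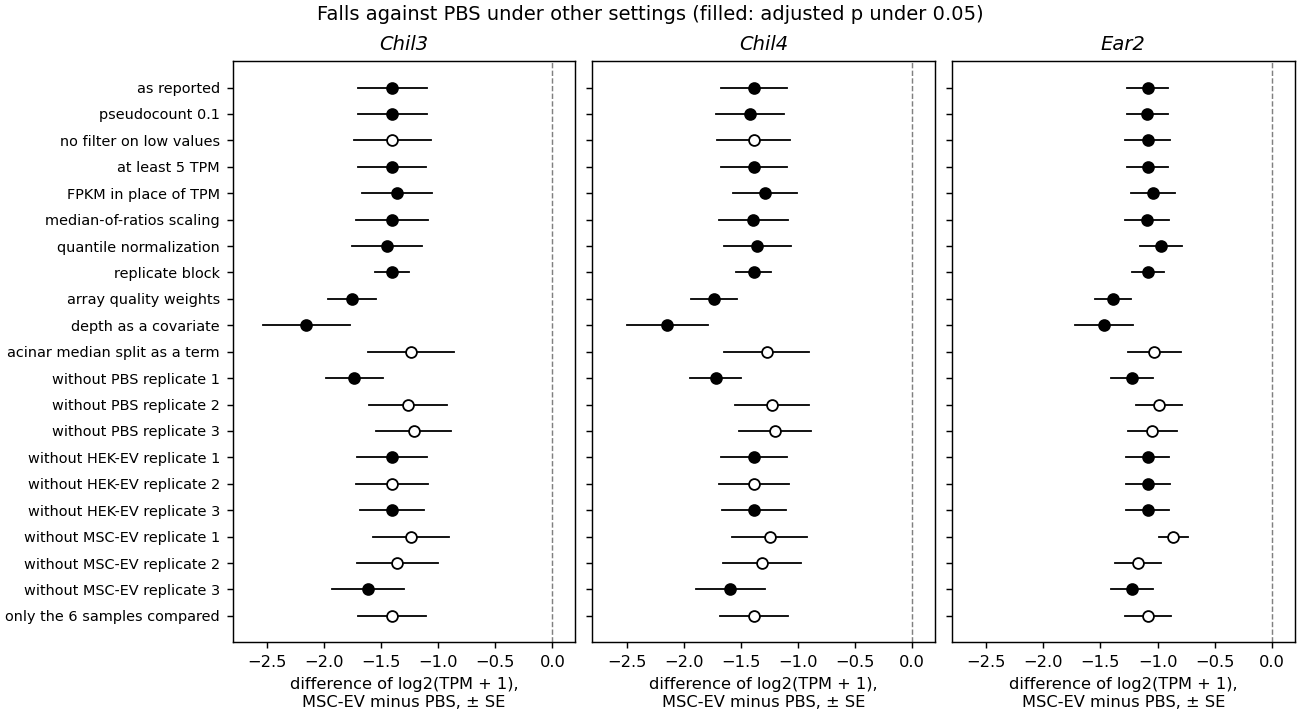
Difference of log2(TPM + 1) of Chil3, Chil4 and Ear2 between MSC-EV and PBS, ± SE, as reported (top) and under 20 alternative fits, with filled points at an adjusted p under 0.05. Every point lies below 0, and open points mark the fits in which the call was lost.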

How the data were processed

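Bulk RNA of CD11b+ liver cells was sequenced from TruSeq Stranded mRNA libraries, per the labels' protocols. HISAT2 2.1.0, StringTie and build mm10 are named in the submitters' processing notes. The annotation and whether reads were assigned by strand are not given in the sources used here. The deposited tables give coverage (the mean read signal over a gene), FPKM and TPM per gene, per the file headers, with TPM summing to 1000000 per sample. Depth in reads is unknown, so no interval that needs counts was computed. The gene name column held no names, and 45679 of 45777 gene IDs (99.8%) had a symbol in RefSeq (GRCm38.p6). Rows of a gene ID were summed.

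The filter kept the 13820 genes that reached 1 TPM in 3 or more samples. Groups were compared on log2(TPM + 1) using R 4.3.3 and its package limma 3.58.1, with moderated variances that follow a mean trend, all 9 samples in 1 fit without covariates, two-sided, with Benjamini-Hochberg adjustment over the genes tested and a threshold of 0.05. An exact permutation test of 3 against 3 cannot fall below 0.10, so none was made. The fit was also run on 5 simulated sets with 200 changed genes, and no outcome of those runs is used here. The members and lists were chosen with earlier results of these data known, and lists got no test. Named genes were the 8 members, the called genes of each pathway list (up to 6, or the 3 of smallest p where under 3 were called) and the 5 genes closest in profile to Chil3 and Mrc1 (mean of at least 5 TPM). A further member of the set and a few listed genes are not reported here. Single markers and Il2rg, Il4, Il13 and Nos2 were also named after their values were seen. The comparison of the lowest and highest samples for Chil3 and the marker sums without single genes were added then too. Python 3.11.15, pandas 2.3.3, Biopython 1.88 and matplotlib 3.10.9 were used for the rest. Alternatives were other pseudocounts, filters, units, scalings, weights, covariates, the replicate block and leaving out each sample.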

Additional observations from a re-analysis of the deposited data

How the results depend on the processing

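Of 477 values of single members under the alternatives, 397 kept their direction and their side of the threshold, 49 lost the call, 4 gained one (Clec10a in 3 and Retnla in 1) and 27 changed direction. Where no value shows a cause, the cause was not tested. Without the low-value filter 1 member was called against PBS and 0 against HEK-EV (all genes: 361 and 387, and 4 in HEK-EV against PBS). Array weights called 5 members against PBS (all genes 4163, and 2081 against HEK-EV). Depth as a covariate called 1339 and 1449 genes, and it turned Clec10a in HEK-EV against PBS to 0.089. FPKM and median-of-ratios scaling each called 1 member against HEK-EV (all genes 436 and 512). With only the 6 samples compared, 0 members and 77 genes were called against PBS. The planned acinar share of 0.001% put all samples on one side and could not be fitted. A split at a median of 0.3 TPM, chosen after seeing the data, called 0 members and 21 genes against PBS and 1 member against HEK-EV, put Mrc1 at -0.038 in MSC-EV against PBS, and put Chil3, Mrc1 and Mgl2 at 0.0063, -0.071 and 0.18 in HEK-EV against PBS. Chil3 was at 0.012 with quantile normalization there, and Clec10a and Mgl2 at 0.11 and 0.038 with array weights.

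No pairing by replicate number was seen (correlations of deviations from -0.50 to 0.06, and 1 of 9 best matches was the same number). The labels give no batch, and 3 samples per group cannot settle whether the numbers mark one. With the replicate block 3, 0 and 3 members and 404, 0 and 448 genes were called.

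Leaving out each sample called 0 to 4 members against PBS, 0 to 3 against HEK-EV, and 5 to 1861, 0 to 1369 and, in HEK-EV against PBS, 0 to 2 of all genes. The 5 genes were without PBS replicate 2, and the 1861 without PBS replicate 1. Differences from PBS in MSC-EV ran from -0.070 to 0.82 for Retnla and -0.079 to 0.37 for Mrc1. In HEK-EV they ran from -0.097 to 0.11 for Clec10a, -0.21 to 0.17 for Mgl2, -0.21 to 0.028 for Ear2, -0.49 to 0.027 for Chil3, -0.51 to 0.012 for Chil4 and -0.11 to 0.26 for Mrc1. Against HEK-EV, Retnla ran from -0.59 to 0.18 and Mrc1 from -0.15 to 0.30.

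Of 300 list medians under alternatives, 268 moved by less than the replicate spread. In MSC-EV against PBS the members' median was 0.21 with depth (-0.095 to 0.098 leaving out samples), and in MSC-EV against HEK-EV it ran from -0.40 to -0.17 leaving out samples. The signalling list was at -0.19 at 5 TPM and with depth against PBS (-0.20 to -0.052), at -0.025 with weights in HEK-EV against PBS, and against HEK-EV at -0.20 unfiltered, -0.17 on FPKM, -0.19 by quantiles and -0.22 with depth (-0.30 to -0.18). The 26 other alternative activation genes were at -0.048 at 5 TPM, 0.15 with weights and 0.20 with depth (-0.050 to 0.11), and in HEK-EV against PBS at 0.027 with the acinar split (0.033 to 0.13). The arginine list was at 0.059 with the acinar split against PBS, and against HEK-EV it was at 0.021 on FPKM and 0.0051 by quantiles (-0.065 to 0.042). The relatives were at -0.42 at 5 TPM and -0.51 with depth against PBS (-0.34 to 0.17), at 0.66 at 5 TPM and 0.29 on FPKM in HEK-EV against PBS, and against HEK-EV at -0.016 unfiltered and -0.97 at 5 TPM.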
